A study of Homo sapiens with 4 samples.

Results

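The kinesin, centromere and centrosome genes were taken from the mRNA levels of BEAS2B cells as all genes whose symbols start with KIF and a digit or C, with CENP and a letter, or with CEP and a digit, together with *NIN*. Of the 16708 genes listed in at least 1 library, 89 met this rule on symbols. They were 13 mitotic kinesins, 17 transport kinesins, 11 other kinesins, 16 centromere genes, 30 centrosome genes and 2 genes in none of these groups. BEAS2B is a virus-transformed line of human bronchial epithelial cells, and all cells were grown in serum-containing medium at the same range of passages. RNA-Seq was done on 2 libraries of control cells (sh-Ctrl), which carry a retrovirus for an shRNA against luciferase, and on 2 libraries of QKI-knockdown cells (sh-QKI), which carry a retrovirus for 1 shRNA that targets all QKI isoforms. Cells with a second QKI shRNA were not analysed here, so the effect of this shRNA and that of less QKI cannot be told apart. The libraries of each group are numbered replicate 1 and replicate 2, and nothing in the sources used here ties them to separate cultures. The p-values below therefore rest on these 4 libraries alone, whose spread may be technical.

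Kinesins are motor proteins that hydrolyse ATP to walk along microtubules or to take them apart. Mitotic kinesins build the spindle, move chromosomes and organise the midzone at cytokinesis, while transport kinesins carry vesicles, organelles and ciliary cargo. Centromere proteins mark the chromatin on which the kinetochore forms and link it to spindle microtubules, and centrosome proteins build centrioles, anchor microtubules and form the base of the cilium. QKI is an RNA-binding protein of the STAR family that binds ACUAAY (Y is C or U) and controls alternative splicing. *CENPE*, a kinetochore motor that is itself a kinesin, and *NIN*, which encodes the centrosomal anchoring protein ninein, are among the genes in which the study lists QKI-dependent splicing events, as are *KIF13A*, *KIF20A*, *KIF21A*, *CENPT* and *CEP85*.

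Sequence is shown for exons of 3 of these genes, because the levels given below count all isoforms of a gene together and cannot tell an exon's inclusion from its skipping. Positions are on GRCh37 (hg19), all 3 genes lie on the minus strand, sequences run 5′ to 3′ on the strand of the gene, and capitals mark ACTAAC or ACTAAT, the DNA letters of the QKI motif. For *CENPE* and *KIF13A*, the exon is the annotated internal exon that lies between the 2 RT-PCR primers of the study and holds neither of them. By position, it is also the exon given in the study's list of splicing events. The *CENPE* exon, chr4:104084636-104084710, is 75 nt long and is present in 1 of the 2 annotated coding transcripts that span it.
CENPE exon: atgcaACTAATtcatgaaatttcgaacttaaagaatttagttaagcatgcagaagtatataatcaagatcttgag
CENPE forward primer: gttgaactcacttcgtgctg
CENPE reverse primer: cttttctctaagcagctctac
The *KIF13A* exon, chr6:17771345-17771449, is 105 nt long and is present in 3 of 7 such transcripts.
KIF13A exon: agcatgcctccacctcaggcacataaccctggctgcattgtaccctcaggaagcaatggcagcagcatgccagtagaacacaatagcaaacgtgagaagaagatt
KIF13A forward primer: ggatagccctggaagcaag
KIF13A reverse primer: caaactccacaggtacataaggc
The motif stood at base 6 of the *CENPE* exon and nowhere in the *KIF13A* exon or in the 200 nt on either side of it. Both lengths are multiples of 3, so that skipping the exon would keep the reading frame.

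For *NIN*, the exon was taken as its longest internal exon (chr14:51223210-51225348, 2139 nt), whose position is that of the *NIN* exon in the same list. It is present in 5 of 9 annotated coding transcripts that span it, and the 200 nt of intron after the exon (chr14:51223010-51223209) are shown for their motif at base 85. The same stretch after the *CENPE* exon (chr4:104084436-104084635) holds the motif at base 141.
NIN downstream intron: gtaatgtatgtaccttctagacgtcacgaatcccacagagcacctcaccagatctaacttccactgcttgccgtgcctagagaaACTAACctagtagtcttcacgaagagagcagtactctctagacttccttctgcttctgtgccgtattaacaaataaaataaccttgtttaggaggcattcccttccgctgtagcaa
CENPE downstream intron: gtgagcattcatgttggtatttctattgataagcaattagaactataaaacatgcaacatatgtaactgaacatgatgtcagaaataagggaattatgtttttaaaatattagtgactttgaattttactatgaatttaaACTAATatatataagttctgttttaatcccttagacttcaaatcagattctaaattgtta
Neither gene held it in the 200 nt before the exon. Over 189562 annotated internal exons of coding transcripts, searched on the strand of the gene, 5.73% had ACTAAC or ACTAAT in the 200 nt after the exon and 6.68% in the 200 nt before it. Such a match is a description of the sequence and not of a bound site.

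The knockdown was checked on *QKI* itself (chr6:163835032-163999624), whose mRNA level was 8.94 and 14.6 RPKM in the sh-Ctrl libraries and 2.52 and 3.85 RPKM in the sh-QKI libraries. RPKM is a number of reads scaled to the length of the gene and the size of the library. The sh-QKI libraries lay below both sh-Ctrl libraries, with a log2 fold change of -1.72. Its standard error was 0.38 without a block and 0.13 when the replicate number was a block. The adjusted p in limma was 1 without the block and 3.16e-33 with it. With the block, limma took the standard error of a gene almost wholly from all tested genes of like level. It was 0.1151 both for *CENPF* (log2 differences of 0.28 in replicate 1 and -0.54 in replicate 2) and for *KIFC1* (-0.07 and 0.07). Standard errors and p-values of limma with the block therefore do not measure how far replicate 1 and replicate 2 differed for that gene. The libraries numbered 1 held 20052951 (sh-Ctrl) and 20571555 reads (sh-QKI), and those numbered 2 held 34706058 and 34862008. Of the marker genes of bronchial epithelium, *KRT7*, *KRT8* and *KRT18* were present in every library. In contrast, *KRT19*, *EPCAM* and *CDH1* were at or under 0.875 RPKM, and the basal keratin *KRT5* was listed in no library. The 7 epithelial markers summed to 683 and 649 RPKM in the libraries numbered 1 and to 216 and 255 RPKM in those numbered 2. Markers of endothelial and of ciliated or secretory cells summed to at most 0.245 RPKM, and those of leukocytes and fibroblasts each had 1 gene at or above 0.5 RPKM. These were *CD68*, at 12.2 to 17.3 RPKM, and *COL1A1*, at 18.6 to 54.1 RPKM.

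The mitotic kinesins and centromere genes were the most abundant of these genes. Of the 89 genes, 80 had a mean of at least 0.5 RPKM over the 4 libraries and were tested, 77 had a mean of at least 1 RPKM and 38 of at least 10 RPKM. The tested genes reached 10 RPKM in 47.5% of cases, against 42.4% of all 11829 tested genes. The median level was 22.3 RPKM for the mitotic kinesins, 16.6 for the centromere genes, 7.41 for the transport kinesins, 7.03 for the other kinesins and 6.15 for the centrosome genes, against 7.93 over all tested genes. The range ran from 0.535 RPKM for *KIF4B* to 70.0 RPKM for *KIF23*. Reads were ample for most of these genes: the fewest in any library was 54, and the median of the mean over libraries was 1858. The plot of levels by library shows that the libraries of 1 replicate number often lay together, whatever their group.

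**Figure D1:**
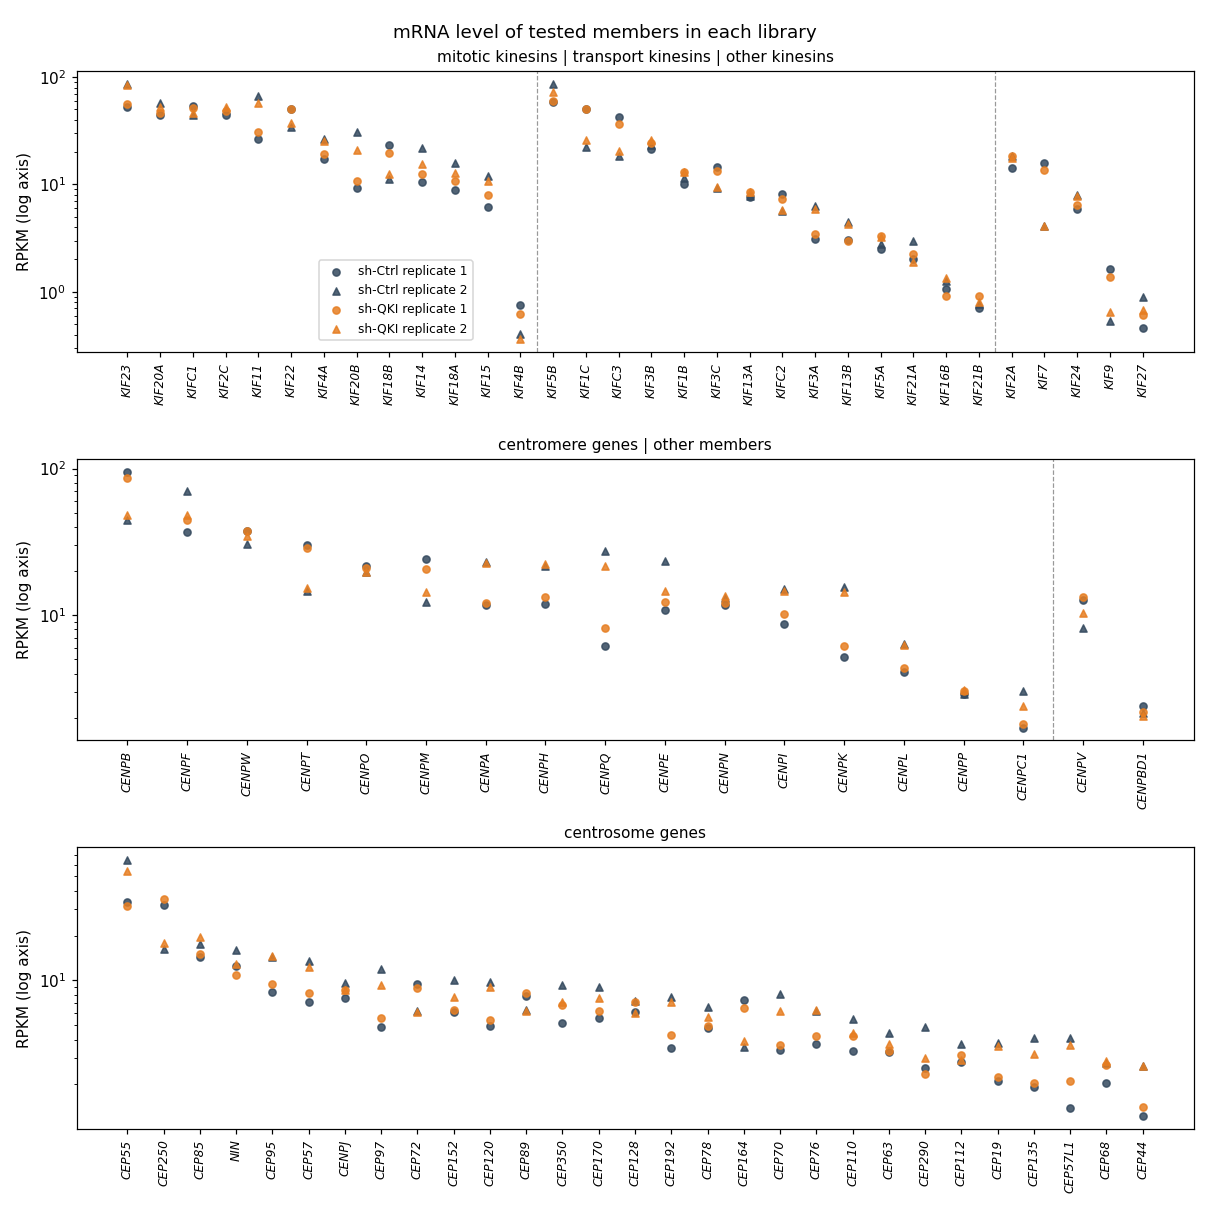
mRNA level (RPKM, log axis) of 79 of the 80 tested genes in each of the 4 libraries, in panels by role and ordered by mean; circles are replicate 1, triangles replicate 2, dark points sh-Ctrl and orange points sh-QKI. For many genes, such as *KIF20B* (9.32 and 10.8 RPKM in the libraries numbered 1, 30.9 and 20.8 in those numbered 2), the 2 circles lie apart from the 2 triangles.

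After QKI knockdown, none of the 80 tested genes was called higher or lower. With limma on log2(RPKM + 0.5) and no block, 0 of them passed an adjusted p of 0.05 and 0 had an unadjusted p under 0.05, where over all 11829 genes the calls were 0% in either direction and 0.110% had an unadjusted p under 0.05. With the block, 0.490% of all genes were called higher and 0.364% lower, but again none of the 80, of which 3 (3.75%, against 6.15% of all genes) had an unadjusted p under 0.05 in limma. These 3 were *KIF1B*, *CENPE* and *CEP290*, and the smallest adjusted p with the block was 0.393, for *CEP290*. When the median of all genes was also set to 0 in each library, limma with the block called 0.406% of all genes higher and 0.558% lower and none of the 80. With voom on reads recovered from the RPKM values, also with the block, 0.583% and 0.575% of all genes were called higher and lower and none of the 80, with a smallest adjusted p of 0.0869, again for *CEP290*. None of the 80 genes had group means over 2-fold apart, as 0.364% of all tested genes did. Their log2 fold changes ran from -0.37 (*CEP290*) to 0.29 (*KIF1B*), with a median standard error of 0.36 without the block and 0.13 with it. In these bulk samples, fewer dividing cells and less RNA per cell cannot be told apart.

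The replicate numbers did not show 1 direction for these genes. In replicate 1, 57 of the 80 genes were higher in sh-QKI than in sh-Ctrl and 23 lower, while in replicate 2, 31 were higher and 49 lower. The direction was opposite in the 2 numbers for 56 genes (70.0%, against 51.7% of all tested genes), and for 41 of these the level was higher in replicate 1 and lower in replicate 2. The median log2 difference was 0.09 in replicate 1 and -0.04 in replicate 2, against 0.02 and 0.05 over all genes. For 13 genes (16.2%, against 6.48% of all genes) the differences in the 2 numbers were over 0.5 apart on the log2 scale: 4 mitotic kinesins, 1 transport kinesin, 3 centromere genes and 5 centrosome genes. No gene was at least 0.25 higher in both numbers and none at least 0.25 lower in both, where 1.83% and 1.45% of all genes were.

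Counted by whether the libraries of the groups overlapped, 6 genes had both sh-QKI libraries above both sh-Ctrl libraries (5.71% of all tested genes did), and none had both below (2.89%). Of these 6, 5 were transport kinesins, *KIF1B*, *KIF3B*, *KIF5A*, *KIF13A* and *KIF21B*, and the other was the centromere gene *CENPP*. They were 7.50% of the 80 genes, near the share over all genes. By role they were 5 of the 14 tested transport kinesins and 1 of the 16 centromere genes. The mitotic kinesins, other kinesins and centrosome genes held none. This difference between roles was not tested.

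**Figure D2:**
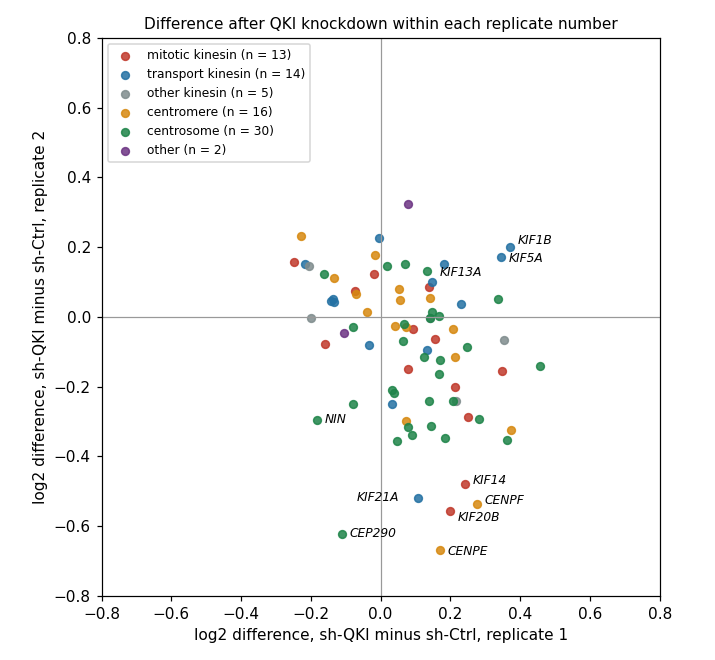
Log2 difference between sh-QKI and sh-Ctrl, on log2(RPKM + 0.5), in replicate 1 (x axis) and replicate 2 (y axis), with 1 point for each of the 80 tested genes, coloured by role. The lower right part, higher in replicate 1 and lower in replicate 2, holds 41 points, among them *CENPE* and *CENPF*, while *KIF1B*, *KIF5A* and *KIF13A* lie in the upper right part.

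Among the genes with listed splicing events, *NIN* (chr14:51186481-51297880) had an mRNA level of 12.4 and 15.9 RPKM in the sh-Ctrl libraries and 10.9 and 12.9 RPKM in the sh-QKI libraries. The sh-QKI library was the lower 1 in each number, but the groups overlapped, since sh-QKI replicate 2 lay above sh-Ctrl replicate 1. The means were 14.2 ± 2.46 RPKM in sh-Ctrl and 11.9 ± 1.39 RPKM in sh-QKI (SD, n = 2 each). The log2 fold change was -0.24, with -0.18 in replicate 1 and -0.30 in replicate 2. Its standard error was 0.28 without the block and 0.12 with it. The adjusted p with limma was 1 without the block and 0.809 with it. Leaving out 1 library moved the log2 fold change to between -0.41 (without sh-Ctrl replicate 1) and -0.07 (without sh-Ctrl replicate 2).

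*CENPE* (chr4:104026506-104119602) moves chromosomes to the spindle equator. It was at 10.9 and 23.4 RPKM in the sh-Ctrl libraries and at 12.3 and 14.5 RPKM in the sh-QKI libraries. Both sh-QKI values lay between the sh-Ctrl values. The log2 difference was 0.17 in replicate 1 and -0.67 in replicate 2, and the adjusted p with limma was 1 without the block and 0.745 with it. Its log2 fold change was -0.25, with a standard error of 0.44 without the block and 0.12 with it. The latter does not reflect the gap between its 2 differences, which were opposite in direction. The log2 fold change became -0.78 without sh-Ctrl replicate 1 and 0.29 without sh-Ctrl replicate 2. Behind these values were 2475 and 9209 reads in sh-Ctrl and 2870 and 5746 in sh-QKI.

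*KIF13A*, a motor for endosomal and melanosomal cargo, was at 7.61 and 7.84 RPKM in the sh-Ctrl libraries and at 8.48 and 8.43 RPKM in the sh-QKI libraries. The groups did not overlap, with a log2 difference of 0.15 in replicate 1 and 0.10 in replicate 2, but the adjusted p with limma was 1 without the block and 0.999 with it. *KIF21A*, a motor that restrains microtubule growth at the cell cortex, was at 2.04 and 2.96 RPKM in sh-Ctrl and 2.24 and 1.92 RPKM in sh-QKI. Its differences of 0.11 and -0.52 on the log2 scale were opposite in the 2 numbers. *KIF20A*, which brings the chromosomal passenger complex to the midzone, was at 44.1 and 58.0 RPKM in sh-Ctrl and at 46.6 and 52.2 RPKM in sh-QKI, with the sh-QKI values between those of sh-Ctrl.

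*CENPT*, which links centromeric chromatin to the outer kinetochore, was at 30.1 and 14.7 RPKM in sh-Ctrl and at 28.6 and 15.4 RPKM in sh-QKI. Its 2 numbers were about 2 times apart and its groups less than 0.1 apart on the log2 scale in either number (-0.07 and 0.07). *CEP85*, a centrosome protein, was at 14.3 and 17.7 RPKM in sh-Ctrl and 15.0 and 19.7 RPKM in sh-QKI. It was slightly higher in sh-QKI in each number, by 0.07 and 0.15 on the log2 scale, and the groups overlapped.

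**Figure D3:**
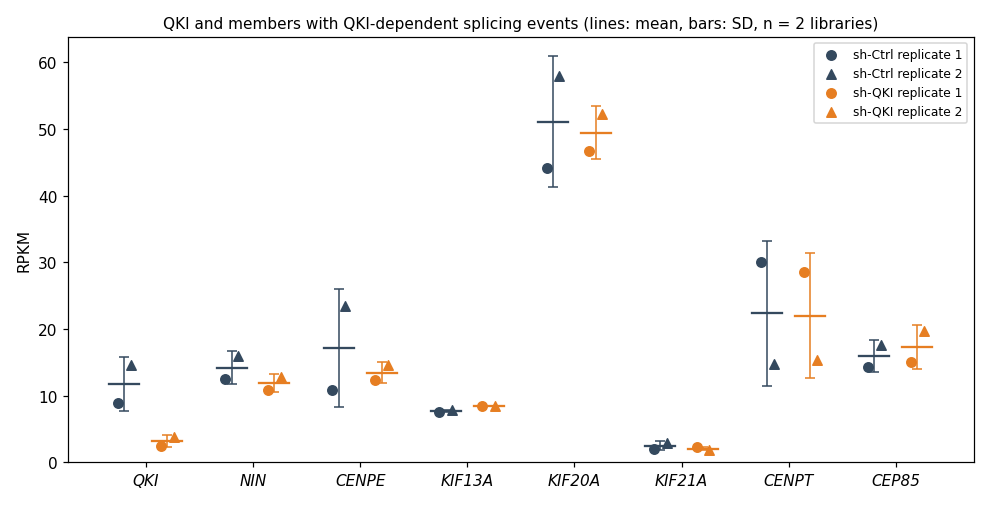
mRNA level (RPKM) of *QKI* and of 7 genes with listed splicing events in each library, with sh-Ctrl in dark points and sh-QKI in orange, circles for replicate 1 and triangles for replicate 2; lines are means and bars SD (n = 2). Only *QKI* and *KIF13A* show groups that do not overlap, *QKI* lower and *KIF13A* higher in sh-QKI.

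The 13 mitotic kinesins had a median log2 fold change of -0.0003, with 0.14 in replicate 1 and -0.08 in replicate 2, and 11 of them (84.6%) had opposite directions in the 2 numbers. *KIF23*, the motor of centralspindlin at the midzone, was at 52.1 and 87.1 RPKM in sh-Ctrl and 55.7 and 85 RPKM in sh-QKI. *KIFC1*, a minus-end-directed motor that focuses spindle poles, was at 54.1 and 43.9 RPKM in sh-Ctrl and 51.4 and 46.2 RPKM in sh-QKI. In both, the sh-QKI values lay between the sh-Ctrl values.

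*KIF2C*, a depolymerase that corrects attachments of kinetochores, was at 44.2 and 49.8 RPKM in sh-Ctrl and 48.7 and 52.9 RPKM in sh-QKI, higher in sh-QKI by 0.14 and 0.09 on the log2 scale with groups that overlapped. It was the only mitotic kinesin higher in both numbers, and *KIF4B*, at 0.752 and 0.408 RPKM in sh-Ctrl and 0.622 and 0.360 RPKM in sh-QKI, the only one lower in both. *KIF4B* is an intronless copy of *KIF4A*, and since reads that aligned ambiguously were left out by the authors, its level is uncertain. The largest gaps between the numbers among the mitotic kinesins were those of *KIF20B* (log2 differences of 0.20 and -0.56) and *KIF14* (0.24 and -0.48), both of which act in cytokinesis and were chosen after their values were seen. *KIF11*, the motor that separates the spindle poles, also chosen after its values were seen, was at 26.6 and 66.4 RPKM in sh-Ctrl and 30.9 and 57.7 RPKM in sh-QKI. For all 13 genes the 2 sh-QKI libraries were closer together than the 2 sh-Ctrl libraries, as they were for 74.4% of all tested genes. The median log2 difference between replicate 2 and replicate 1, with its sign, was 0.26 in sh-QKI and 0.61 in sh-Ctrl. In both groups, 4 of the 13 were lower in replicate 2.

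Of the 17 transport kinesins, 14 were tested. Their median log2 fold change was -0.0069, with 0.07 in replicate 1 and 0.05 in replicate 2, and 8 (57.1%) had opposite directions. *KIF1B*, a carrier of mitochondria and of synaptic vesicle precursors, had the highest log2 fold change of all 80 genes. It was at 10.0 and 11.4 RPKM in sh-Ctrl and at 13.1 and 13.2 RPKM in sh-QKI. Both sh-QKI libraries lay above both sh-Ctrl libraries, and the log2 fold change was 0.29, with 0.37 and 0.20 in the 2 numbers. Its standard error was 0.25 without the block and 0.12 with it. The adjusted p with limma was 1 without the block and 0.541 with it.

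*KIF5A*, a kinesin heavy chain known mainly from neurons, was at 2.53 and 2.79 RPKM in sh-Ctrl and 3.34 and 3.21 RPKM in sh-QKI, with log2 differences of 0.34 and 0.17 and an adjusted p with limma of 0.938 with the block. Its annotated exons overlap those of *DCTN2*, a dynactin subunit, which was at 45.8 and 30.7 RPKM in sh-Ctrl and 43.2 and 35.0 RPKM in sh-QKI, so that reads of *DCTN2* may be part of its level. *KIF3B*, a subunit of the kinesin that carries cargo into cilia, was at 21.2 and 23.3 RPKM in sh-Ctrl and 24.2 and 25.9 RPKM in sh-QKI, also without overlap, with log2 differences of 0.18 and 0.15. *KIF21B*, named for its lack of overlap, was at 0.700 and 0.770 RPKM in sh-Ctrl and 0.909 and 0.804 RPKM in sh-QKI.

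The 3 most abundant transport kinesins followed the replicate number in both groups. *KIF5B*, the ubiquitous kinesin heavy chain, was at 58.2 and 86.5 RPKM in sh-Ctrl and 59.6 and 72.7 RPKM in sh-QKI. *KIF1C*, a motor for vesicles and mRNAs, was at 50.6 and 22.3 RPKM in sh-Ctrl and 50.4 and 26.2 RPKM in sh-QKI. *KIFC3*, a minus-end-directed motor at cell junctions and the Golgi, was at 42.6 and 18.5 RPKM in sh-Ctrl and 36.6 and 20.6 RPKM in sh-QKI. The sh-QKI values lay between the sh-Ctrl values for all 3. *KIF13B* was the only tested transport kinesin lower in sh-QKI in both numbers, at 3.04 and 4.51 RPKM in sh-Ctrl and 2.96 and 4.24 RPKM in sh-QKI.

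*KIF5C*, the third kinesin heavy chain and, like *KIF5A*, known mainly from neurons, was under the limit of 0.5 RPKM on average and was not tested with the other genes. It was chosen after its values were seen. It was at 0.349 and 0.509 RPKM in sh-Ctrl and at 0.144 and 0.127 RPKM in sh-QKI, from 71 and 179 reads against 30 and 45. Both sh-QKI libraries lay below both sh-Ctrl libraries, with means of 0.429 ± 0.113 RPKM and 0.136 ± 0.0117 RPKM (SD, n = 2 each). On the log2(RPKM + 0.5) scale, which understates changes at such levels, the difference was -0.54 (-0.40 and -0.69 in the 2 numbers). When all 16708 genes were fitted without a limit, a choice also made after the data were seen, limma with the block gave *KIF5C* an adjusted p of 0.308 and called 0 genes in either direction, *QKI* included (adjusted p = 0.0669). In that fit 5.85% of all genes had an unadjusted p under 0.05, and that of *KIF5C* was 0.000787 in limma. Voom on the recovered reads, with the block and without a limit, gave *KIF5C* a log2 fold change of -1.71 (standard error 0.33) and an adjusted p of 0.0135, and called 0.209% of all genes higher and 0.287% lower. *KIF5C* was thus the 1 gene of the 89 called in any fit, and its call rests on that 1 fit.

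Of the 11 other kinesins, 5 were tested, and 4 of these had opposite directions in the 2 numbers. *KIF2A*, a microtubule depolymerase, was at 14.4 and 18.3 RPKM in sh-Ctrl and 18.5 and 17.5 RPKM in sh-QKI, with log2 differences of 0.35 and -0.07. *KIF7*, a regulator of Hedgehog signalling at the ciliary tip, was at 15.9 and 4.11 RPKM in sh-Ctrl and 13.7 and 4.10 RPKM in sh-QKI. *KIF24*, a centriolar kinesin, was at 5.84 and 7.89 RPKM in sh-Ctrl and 6.5 and 7.87 RPKM in sh-QKI. The levels of *KIF7* and *KIF24* followed the replicate number, and the groups overlapped in all 3 genes. Apart from *KIF5C*, the kinesins under the limit were *KIF17*, *KIF26B*, *KIF26A*, *KIF25*, *KIF1A*, *KIF12*, *KIF6* and *KIF19*. The last 6 were each listed in fewer than 4 libraries and 5 of the 89 genes had fewer than 10 reads in every library, so that no difference was detectable for them at this depth.

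The 16 centromere genes were all tested, with a median log2 fold change of 0.01, medians of 0.06 in replicate 1 and -0.0063 in replicate 2, and opposite directions for 13 (81.2%). *CENPB*, which binds a motif of alpha satellite DNA, was at 95.1 and 44.7 RPKM in sh-Ctrl and 86.5 and 48.3 RPKM in sh-QKI. *CENPF*, a large kinetochore protein of G2 and M phase, was at 36.8 and 70.4 RPKM in sh-Ctrl and 44.7 and 48.3 RPKM in sh-QKI. *CENPW*, the partner of CENPT in chromatin, was at 37.7 and 30.5 RPKM in sh-Ctrl and 37.3 and 34.5 RPKM in sh-QKI. For all 3, the sh-QKI values lay between the sh-Ctrl values, as they did for *CENPE*. *CENPF* resembled *CENPE* in that it was higher in sh-QKI in replicate 1 (0.28) and lower in replicate 2 (-0.54 on the log2 scale).

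Only 3 of the 16 genes grouped as centromere genes were higher in sh-QKI in both numbers, and none was lower in both. *CENPH*, of the constitutive network on centromeric chromatin, was at 12 and 21.5 RPKM in sh-Ctrl and 13.3 and 22.3 RPKM in sh-QKI. *CENPN*, which reads CENPA nucleosomes, was at 11.7 and 13.1 RPKM in sh-Ctrl and 12.1 and 13.5 RPKM in sh-QKI. *CENPP*, of the same network, was at 2.90 and 2.91 RPKM in sh-Ctrl and 3.02 and 3.11 RPKM in sh-QKI, which is the lack of overlap named above, with log2 differences of only 0.05 and 0.08. *CENPA*, the histone H3 variant that marks the centromere, chosen for this role, was at 11.7 and 23.0 RPKM in sh-Ctrl and at 12.1 and 22.6 RPKM in sh-QKI. Its groups differed by 0.04 and -0.03 on the log2 scale in the 2 numbers, while its libraries of either group were close to 2 times apart.

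Over the 30 centrosome genes the median log2 fold change was -0.0044, with 0.13 in replicate 1 and -0.15 in replicate 2. Of them, 25 were higher in sh-QKI in replicate 1 and 23 were lower in replicate 2, and 19 did both. *CEP55*, which recruits the abscission machinery to the midbody, was at 33.5 and 64.4 RPKM in sh-Ctrl and 31.7 and 54.1 RPKM in sh-QKI, lower by 0.08 and 0.25 on the log2 scale with groups that overlapped. *CEP250*, a linker between the centrioles, was at 32.1 and 16.3 RPKM in sh-Ctrl and 35.3 and 18.0 RPKM in sh-QKI, higher by 0.13 in each number. *CEP68*, another protein of that linker, was at 2.05 and 2.77 RPKM in sh-Ctrl and 2.71 and 2.88 RPKM in sh-QKI, with log2 differences of 0.34 and 0.05. The groups overlapped for both linker genes.

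*CEP290*, a protein of the ciliary transition zone, had the lowest log2 fold change of the 80 genes. It was at 2.56 and 4.89 RPKM in sh-Ctrl and at 2.33 and 3 RPKM in sh-QKI. The sh-QKI library was the lower 1 in each number, by 0.11 and 0.62 on the log2 scale, and sh-QKI replicate 2 lay between the sh-Ctrl libraries. The log2 fold change was -0.37, with a standard error of 0.38 without the block and 0.15 with it. The adjusted p in limma with the block was 0.393. The log2 fold change became -0.78 without sh-Ctrl replicate 1 and 0.04 without sh-Ctrl replicate 2. With *NIN* and *CEP55*, *CEP290* was among the 4 centrosome genes lower in both numbers, where 6 were higher in both. Its exons overlap those of *C12orf29*, as the exons of 24 of the 89 genes overlap another coding gene, and how reads in such stretches were counted is not stated.

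The 2 genes that were placed in none of these groups are *CENPV*, whose product acts on microtubules, and *CENPBD1*, which shares a DNA-binding domain with *CENPB*. *CENPV* was at 12.7 and 8.13 RPKM in sh-Ctrl and 13.4 and 10.3 RPKM in sh-QKI, and *CENPBD1* at 2.39 and 2.15 RPKM and 2.18 and 2.06 RPKM. On the log2 scale *CENPV* was higher in sh-QKI in both numbers (0.08 and 0.32) and *CENPBD1* lower in both (-0.10 and -0.05). The groups overlapped for both genes.

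Other genes of the same structures gave the same counts of calls. Of 35 genes of the kinetochore, spindle and checkpoint, all were tested and 0 were called by limma without or with the block, with a median log2 fold change of 0.0013 (0.04 in replicate 1 and -0.04 in replicate 2) and opposite directions for 23 (65.7%). Of 25 centrosome and centriole genes outside the CEP family, 24 were tested and 0 called, with a median of 0.0048 (0.07 and -0.06) and opposite directions for 16 (66.7%). Of 24 partners of motors, such as kinesin light chains and dynein and dynactin subunits, 24 were tested and 0 called, with a median of 0.01 (-0.03 and -0.0065) and opposite directions for 12 (50%).

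From each of these lists, the 3 genes with the largest difference in either direction were taken among those with the same sign in both numbers and a mean of at least 1 RPKM. *SPC25* and *NUF2*, of the NDC80 complex, were at 9.95 and 16.6 RPKM and at 16.1 and 23.8 RPKM in sh-Ctrl, and at 9.09 and 14.4 RPKM and at 16.0 and 19.1 RPKM in sh-QKI. *PRC1*, which bundles microtubules of the midzone, was at 95.1 and 120 RPKM in sh-Ctrl and 87.0 and 108 RPKM in sh-QKI. *NINL*, the ninein-like gene, was at 3.93 and 3.47 RPKM in sh-Ctrl and 3.50 and 3.17 RPKM in sh-QKI, lower by 0.15 and 0.11 on the log2 scale. *ODF2*, of the appendages of the mother centriole, was at 22.3 and 13 RPKM in sh-Ctrl and 24.2 and 14.3 RPKM in sh-QKI, higher by 0.11 and 0.13. *TUBGCP4*, of the gamma-tubulin ring complex, was at 9.56 and 10.1 RPKM in sh-Ctrl and 11.2 and 10.2 RPKM in sh-QKI, higher by 0.21 and 0.0084.

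Of the partners of motors, *KIFAP3*, which joins the KIF3 motors to cargo, was at 1.75 and 3.39 RPKM in sh-Ctrl and 1.58 and 2.47 RPKM in sh-QKI, and so did not share the direction of *KIF3B*. *DCTN6*, a dynactin subunit, was at 7.49 and 17.2 RPKM in sh-Ctrl and 10.0 and 18.5 RPKM in sh-QKI. *KLC4*, a kinesin light chain, was at 2.60 and 2.87 RPKM in sh-Ctrl and 2.73 and 3.48 RPKM in sh-QKI. Of the 9 genes taken from the lists, only *TUBGCP4* had groups that did not overlap, with both sh-QKI libraries above. In the full lists, the kinetochore, spindle and checkpoint genes held 1 gene with both sh-QKI libraries below both sh-Ctrl libraries. The motor partners also held 1 such gene. Over all tested genes, 5.71% had both sh-QKI libraries above and 2.89% both below.

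The differences of these genes moved with the replicate number and with the base composition of the transcript. In sh-Ctrl, the level was higher in replicate 2 than in replicate 1 by a median of 0.40 on the log2 scale over the 80 genes, against -0.0023 over all genes, and by 0.14 in sh-QKI, against 0.0047. The difference between the libraries of a group was smaller in sh-QKI than in sh-Ctrl for 74 of the 80 genes (92.5%, against 74.4% of all genes), and over 2-fold for 17 genes in sh-Ctrl and for 3 in sh-QKI. The median GC content of the canonical transcript was 43.0% for these genes and 48.6% for all tested genes.

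Over the 78 tested genes with an annotated transcript, GC content correlated with the difference between the replicate numbers in sh-Ctrl (Pearson r = -0.848) and in sh-QKI (-0.751), and with the difference between the groups in replicate 1 (-0.566) and in replicate 2 (0.687). Over 11616 of all tested genes the same values were -0.724, -0.639, -0.353 and 0.474. These correlations are across genes, which share the 4 libraries and are not independent replicates. Of the 39 genes with the lower GC content (32.8 to 42.8%), 35 were higher in sh-QKI in replicate 1 and 36 were lower in replicate 2, with medians of 0.17 and -0.24. Of the 39 with the higher GC content (43.3 to 67.2%), 21 were higher in replicate 1 and 12 lower in replicate 2, with medians of 0.03 and 0.07.

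**Figure D4:**
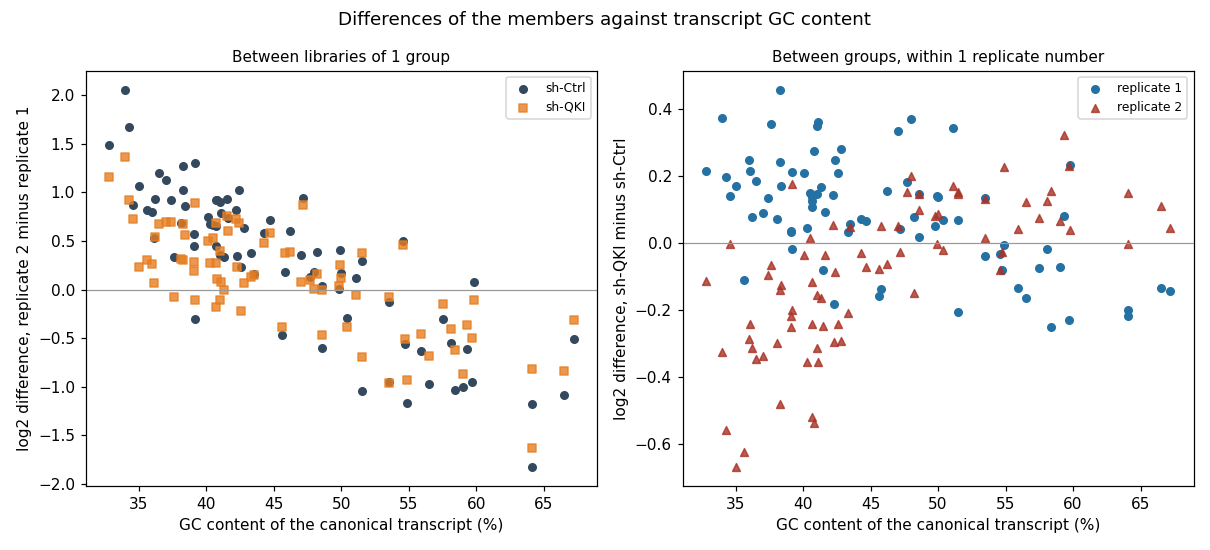
Log2 differences of 78 tested genes against the GC content of the canonical transcript (%): on the left between replicate 2 and replicate 1 within sh-Ctrl (dark) and sh-QKI (orange), on the right between sh-QKI and sh-Ctrl within replicate 1 (blue circles) and replicate 2 (red triangles). On the left the points slope down (r = -0.848 and -0.751), and on the right replicate 1 slopes down (r = -0.566) and replicate 2 up (r = 0.687).

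When the trend over GC content was taken from each library, an alternative chosen after the data were seen, the direction was opposite in the 2 numbers for 43 of 78 genes (55.1%, against 39.3% of all genes). Of these, 41 were also opposite before the correction, when 56 of the 78 were, and 2 (*KIF13B* and *KIF21B*) only after it. With this and the block, limma called 1.07% of all genes higher and 0.603% lower and none of these genes, of which 8 (10.3%, against 14.6% of all genes) had an unadjusted p under 0.05. The smallest adjusted p in that limma fit was 0.0853, for *KIF1B*, whose log2 differences were then 0.37 and 0.20. *NIN* was at -0.22 and -0.23 in the 2 numbers, with an adjusted p of 0.148 in limma. *CEP290* was at -0.18 and -0.43, with an adjusted p of 0.151 in limma, and *CENPE* at 0.10 and -0.46, still opposite in the 2 numbers.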

How the data were processed

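Total RNA of BEAS2B cells was made into TruSeq libraries, and single-end reads were sequenced on an Illumina GAII at 2 read lengths, which the sources used here do not tie to a replicate number. The authors used Bowtie, of unstated version, with at most 3 mismatches, against hg19 and the exon junctions of Ensembl coding genes, left out ambiguous reads, and deposited RPKM per gene and library. Genes not listed in a library were set to 0 there. Whole reads and library totals were recovered from the RPKM values (100% of 61702 values whole, relative tolerance 1e-11). Reads summed over genes came to between 1.35 and 1.53 times the totals, and how reads in overlapping genes were counted is not stated.

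With limma 3.58.1 (R 4.3.3), log2(RPKM + 0.5) was fitted with a mean-variance trend for all genes averaging 0.5 RPKM or more. The test was two-sided, with Benjamini-Hochberg adjustment over all tested genes and a threshold of 0.05. The fit was also run on simulated data, with and without the block, but the outcome is not given here and nothing rests on it. The replicate number was a block in an alternative, because the labels give no shared culture or day for it. Other alternatives were other pseudocounts (0.1 and 1), limits on RPKM, median centring, voom of limma on the recovered reads, and each library left out in turn. Voom and the block without a limit, and the GC correction, were chosen after the data were seen. Positions, GC content and exon sequences came from GRCh37 and GENCODE lifted to it, and primers from the study's oligonucleotide list.

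Genes named were *QKI*, those with listed splicing events (1 is not reported here), and, by role, the 3 most abundant and up to 3 largest differences in each direction with the same sign in both numbers and a mean of at least 1 RPKM. From the other pathway lists, 3 genes each were named by size of difference alone. Members, roles and lists were chosen with earlier results of these data known. Python 3.11.15, numpy 2.4.6, pandas 2.3.3, scipy 1.17.1 and matplotlib 3.10.9 were used.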

Additional observations from a re-analysis of the deposited data

How the results depend on the processing

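The count of genes called was 0 in either direction in every alternative with all libraries, with 1 exception. Voom with the replicate block and without a limit on RPKM called 1 gene lower, *KIF5C*. The reported fit without the block called 0 of all 11829 tested genes, *QKI* included. Its count of 0 for these genes is therefore no sign of stability. Same-numbered libraries deviated together (Pearson r = 0.953 across genes) and were alike in their totals of reads. With 2 numbers and no stated pairing, what lies behind this likeness is not known. The block moved no call among the 80 genes, while it moved the calls over all genes from 0 to 58 higher and 43 lower. Libraries differed less within a number than within a group. Leaving out 1 library moved the medians. The median log2 fold change ran from -0.2974 (without sh-Ctrl replicate 1) to 0.3501 (without sh-Ctrl replicate 2) for mitotic kinesins, and over the same libraries from -0.2778 to 0.2582 for centromere genes and from -0.3434 to 0.2876 for centrosome genes. It ran from -0.0248 to 0.2511 for other kinesins and from 0.0993 to 0.1596 for transport kinesins. The median for transport kinesins was -0.0314 without a limit on RPKM (with or without the block), -0.0320 by voom with the block and without a limit, -0.0332 with at least 1 RPKM, -0.0411 with median centring (with or without the block) and 0.0135 with the block and GC correction, against -0.0069 in the fit reported. By voom without a limit, that of other kinesins was -0.1189. The cause of these shifts was not tested. Of 373 values of single named genes in alternatives with all libraries, 352 moved by no more than a spread measured for each gene. This spread was the SD of the gene's 2 log2 differences between sh-QKI and sh-Ctrl, in replicate 1 and in replicate 2. It is not the spread between libraries of 1 group. For *QKI* it was 0.11, while the sh-Ctrl libraries were 0.68 apart on the log2 scale. Alternatives of limma on RPKM that changed only the limit or the block could not move the log2 fold change of a single gene. Part of these 352 was therefore fixed in advance and is no sign of stability. Of 136 values with 1 library left out, 88 moved by more than that SD and 48 did not. These moves follow the difference between libraries of 1 group, which the SD leaves out. With 2 libraries a group, no sample could be tested for standing apart from its group.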
